A study of Mus musculus with 6 samples.

Results

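The fatty acid elongases and desaturases examined here are 10 genes, *Scd1*, *Scd2*, *Fads1*, *Fads2*, *Elovl1*, *Elovl2*, *Elovl3*, *Elovl5*, *Elovl6* and *Elovl7*. They were taken by name, as the rows of the count table whose Ensembl identifiers carry these symbols, and make up 10 of the 49671 genes in the table. RNA was sequenced from the livers of 6 male C57BL/6J mice, 3 SHMT2 fl/fl and 3 SHMT2 HKO, which the labels call WT and KO. The SHMT2 fl/fl mice carried a floxed allele of *Shmt2*, the mitochondrial serine hydroxymethyltransferase, without Cre, and the SHMT2 HKO mice carried the same floxed allele together with Albumin-Cre. All 6 mice had been given the AMLN diet, a feed rich in cholesterol, fructose and fat, from week 4 of age for 18 weeks, and livers were taken after a short fast. Albumin-Cre was used to target hepatocytes, and the paper proposes from its protein blots that other liver cells kept SHMT2. *Shmt2* was not measured by cell type here. No chow-fed mouse and no mouse with Cre alone was analysed here, so the effects of Cre itself and of the deletion cannot be told apart.

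Elongases of the Elovl family carry out the rate-limiting condensation that lengthens a fatty acyl chain on the endoplasmic reticulum, and each member prefers certain chain lengths and degrees of unsaturation. Stearoyl-CoA desaturases (Scd) place the first double bond in a saturated chain and so make oleate and palmitoleate, while Fads2 and Fads1 add double bonds to the essential polyunsaturated fatty acids. In liver, *Scd1* and *Elovl6* are classical targets of the lipogenic factor SREBP-1c, and the Fads and Elovl genes of the polyunsaturated route set the supply of arachidonic and docosahexaenoic acid for membranes.

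Of the 10 genes, 6 rose in SHMT2 HKO livers, 2 fell and 2 did not pass the test. *Scd1*, *Fads1*, *Elovl2*, *Elovl5* and *Elovl6* rose between 1.85-fold and 2.53-fold, and *Elovl3* rose 9.56-fold. *Scd2* and *Elovl7* fell to 0.418 and 0.241 of the SHMT2 fl/fl level. The test was edgeR's quasi-likelihood F test with Benjamini-Hochberg adjustment over 16089 genes, all 10 members passed its filter on low counts, and a gene was called at an adjusted p under 0.05. By the same rule 12.5% of all tested genes were called higher and 16.5% lower. The median log2 fold change was 0.92 over the 10 members and 0.03 over all tested genes. For 6 members every SHMT2 HKO mouse lay above every SHMT2 fl/fl mouse, and for 2 members every SHMT2 HKO mouse lay below, where 21.9% and 25% of all tested genes separated in these directions.

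Counts on genes ranged from 23090837 to 34089722 per mouse. *Shmt2* was counted 3866, 2897 and 3600 times in SHMT2 fl/fl mice and 587, 558 and 491 times in SHMT2 HKO mice, a log2 fold change of -2.04 (SE 0.16, edgeR adjusted p = 0.000639). Hepatocyte markers had the highest sum of the marker lists in every library. Their summed level was 58461 to 70972 CPM in SHMT2 fl/fl and 71306 to 105177 CPM in SHMT2 HKO mice, and 4 of the 10 rose. CPM is the count scaled to the TMM-adjusted library size. Markers of other cells differed between the genotypes. All 8 cholangiocyte markers fell (summed 981 to 1229 against 131 to 250 CPM), as did 5 of 8 stellate cell and fibroblast markers (1266 to 1362 against 293 to 769 CPM), 5 of 9 lymphocyte markers (42 to 61.4 against 17.6 to 24.9 CPM) and 5 of 8 macrophage markers (561 to 782 against 422 to 517 CPM). The Kupffer cell marker *Clec4f*, of the same macrophage list, rose (log2 fold change 2.83, SE 0.42, edgeR adjusted p = 0.00391). Of 8 endothelial markers 2 rose (329 to 340 against 336 to 406 CPM). In bulk liver, fewer cells of a type and less RNA per cell cannot be told apart. SHMT2 HKO mouse 1 also held adipocyte transcripts, with 100 counts of *Plin1* and 63 of *Adipoq*, against at most 5 and 4 in the other mice. The summed level of the 5 adipocyte markers was 1.15 to 2.93 CPM in SHMT2 fl/fl and 11 to 99.2 CPM in SHMT2 HKO mice, most of it *Cfd*, the only one of the list that was tested. Without SHMT2 HKO mouse 1, the 6 raised members were still called higher, *Fads2* joined them, and *Scd2* remained lower while *Elovl7* missed the threshold. Leaving out other mice cost more calls. Only *Elovl3* was called higher without SHMT2 fl/fl mouse 1, *Elovl3* and *Elovl6* without mouse 2, and *Elovl2* and *Elovl3* without mouse 3. Calls over all tested genes fell as well, from 2012 of 16089 called higher to 936 of 16262, 861 of 16556 and 805 of 16336 in turn. Without SHMT2 HKO mouse 2, *Scd1* and *Fads1* lost their calls and 4 members were called higher, and without mouse 3 *Fads1* lost its call and 5 were. Over all tested genes, 1973 of 16395, 1129 of 16813 and 2521 of 16774 were called higher without SHMT2 HKO mouse 1, 2 and 3.

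**Figure D1:**
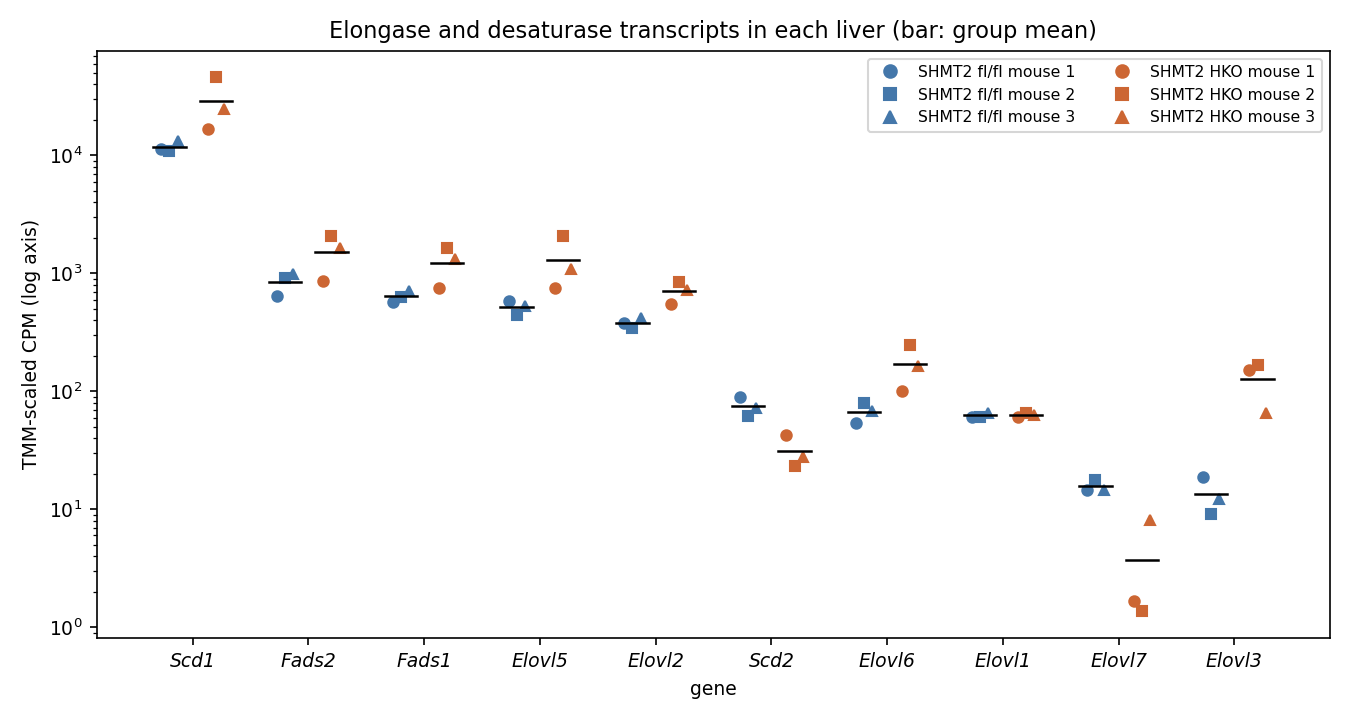
TMM-scaled CPM of each member in each liver on a log axis, with symbols for the 3 SHMT2 fl/fl (blue) and 3 SHMT2 HKO (orange) mice and a bar at the mean of each group. *Scd1* lies far above the other members in both genotypes, and the 2 groups overlap for *Elovl1* and *Fads2*.

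Within the stearoyl-CoA desaturases, *Scd1*, the main hepatic isoform, rose while *Scd2*, an isoform best known from brain and from immature liver, fell. *Scd1* (chromosome 19, 44394455 to 44407879, minus strand, GRCm38) stood at 11317, 10975 and 13152 CPM in SHMT2 fl/fl mice and at 16720, 45874 and 24691 CPM in SHMT2 HKO mice. The groups did not overlap, but the SHMT2 HKO mice were spread widely, with mouse 2 far above the others. The means were 11814 ± 1171 and 29095 ± 15068 CPM (SD, n = 3), and the log2 fold change was 1.30 (SE 0.36, edgeR adjusted p = 0.0295). *Scd1* was the 3rd to 5th most counted gene of every liver, and its share of all gene counts was 1.26% to 1.48% with the floxed allele alone and 1.35%, 3.68% and 2.43% in SHMT2 HKO mice 1, 2 and 3.

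*Scd2* (chromosome 19, 44293674 to 44306864, plus strand) was measured at 89.5, 62.1 and 72.3 CPM in SHMT2 fl/fl mice and at 42.3, 23.4 and 27.9 CPM in SHMT2 HKO mice. Every SHMT2 HKO mouse lay below every SHMT2 fl/fl mouse. In these TMM-scaled values the mouse with the most *Scd1* had the least *Scd2*, which did not hold under every scaling. The log2 fold change was -1.26 (SE 0.23, edgeR adjusted p = 0.00645), with means of 74.6 ± 13.8 and 31.2 ± 9.89 CPM (SD, n = 3). Within a mouse, the log2 ratio of *Scd1* to *Scd2* counts was 6.98, 7.46 and 7.51 in SHMT2 fl/fl and 8.63, 10.94 and 9.79 in SHMT2 HKO mice, a difference of 2.47 (SE 0.69) that needs no scaling between libraries. Its exact two-sided permutation p of 0.1 is the smallest that 3 against 3 mice can give (adjusted p = 0.3 over 6 ratios). In the same livers all 8 cholangiocyte markers and 5 each of the stellate cell, macrophage and lymphocyte markers fell, while the macrophage marker *Clec4f* rose, and their part in the lower *Scd2* level was not tested.

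The 4 mouse Scd genes lie side by side on chromosome 19, and their coding sequences are alike. *Scd1* and *Scd2* were identical at 90.3% of 1065 aligned coding bases (GENCODE M21, GRCm38), with a longest shared stretch of 147 bases. *Scd1* and *Scd3* were identical at 91.5%, with a longest shared stretch of 185 bases. The stretch shared by *Scd1* and *Scd2* was shorter than an untrimmed read of this study, that of *Scd1* and *Scd3* longer. Sharing of reads between the Scd genes was not measured. The lines give the coding bases around the end of the stretch that *Scd1* and *Scd2* share, shown because the 2 genes moved in opposite directions, with the 2 bases that differ in capitals.
Scd1, coding bases 610 to 729: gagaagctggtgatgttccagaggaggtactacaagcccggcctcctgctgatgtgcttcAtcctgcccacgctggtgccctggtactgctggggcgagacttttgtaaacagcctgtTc
Scd2, coding bases 619 to 738: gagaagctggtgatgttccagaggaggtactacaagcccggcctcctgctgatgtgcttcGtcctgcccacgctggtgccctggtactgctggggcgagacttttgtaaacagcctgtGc
The authors counted unique hits only, so a read that fits both genes equally well would be left out of both counts. *Scd3*, which lies on the far side of *Scd2* from *Scd1*, was at 2.54, 2.26 and 4.1 CPM in SHMT2 fl/fl and 0.679, 0.557 and 0.59 CPM in SHMT2 HKO mice, a log2 fold change of -2.28 (SE 0.34, edgeR adjusted p = 0.00294). Its count is uncertain, because it shares sequence with the far more abundant *Scd1*. *Scd4*, between *Scd2* and *Scd1*, was counted 0 to 19 times per mouse, and the outer neighbours *Pkd2l1* and *Wnt8b* at most 4 times.

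The desaturases of polyunsaturated fatty acids, *Fads2* (chromosome 19, 10062765 to 10101746, minus strand) and *Fads1* (10182888 to 10196877, plus strand), are neighbours that act in turn on linoleic and alpha-linolenic acid. *Fads1*, which makes arachidonic acid, stood at 571, 626 and 716 CPM in SHMT2 fl/fl mice and at 754, 1629 and 1317 CPM in SHMT2 HKO mice. The groups did not overlap, though SHMT2 HKO mouse 1 was close to the highest SHMT2 fl/fl mouse. The log2 fold change was 0.95 (SE 0.27, edgeR adjusted p = 0.0332), with means of 638 ± 73.2 and 1233 ± 444 CPM (SD, n = 3). *Fads2*, which carries out the first step of the route, stood at 647, 921 and 980 CPM and at 856, 2070 and 1630 CPM. Here SHMT2 HKO mouse 1 fell inside the SHMT2 fl/fl range, and the log2 fold change of 0.84 (SE 0.32) did not pass the test (edgeR adjusted p = 0.0843). DESeq2 called it (adjusted p = 0.0217), and so did edgeR without SHMT2 HKO mouse 1 (log2 fold change 1.13, adjusted p = 0.00666).

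The *Fads1* to *Fads2* log2 ratio within a mouse averaged -0.40 ± 0.19 in SHMT2 fl/fl livers against -0.28 ± 0.08 for SHMT2 HKO (SD, n = 3), a difference of 0.12 (SE 0.12, exact two-sided permutation p = 0.5). That ratio overlapped between the genotypes, so that a call for *Fads1* and none for *Fads2* does not show that the 2 genes differed. The neighbours *Fads3*, a paralog that acts on sphingoid bases, and *Fen1*, a DNA repair nuclease, had log2 fold changes of -0.34 and -0.28 and did not pass the test, while *Rab3il1*, on the far side of *Fads3*, fell (log2 fold change -0.92, SE 0.18, edgeR adjusted p = 0.00763).

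Among the elongases, *Elovl6* converts palmitate to stearate and so feeds stearoyl-CoA desaturase. *Elovl6* (chromosome 3, 129532355 to 129638495, plus strand) was measured at 54.4, 80.3 and 67.8 CPM in SHMT2 fl/fl mice and at 100, 249 and 164 CPM in SHMT2 HKO mice. Every SHMT2 HKO mouse was above the SHMT2 fl/fl mice, with mouse 2 again the highest. The log2 fold change was 1.34 (SE 0.31, edgeR adjusted p = 0.0158), with means of 67.5 ± 13 and 171 ± 74.4 CPM (SD, n = 3). The *Scd1* to *Elovl6* log2 ratio within a mouse was 7.46 ± 0.33 in SHMT2 fl/fl against 7.38 ± 0.15 in SHMT2 HKO mice, a difference of -0.08 (SE 0.21, exact two-sided permutation p = 0.7).

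*Elovl5* and *Elovl2* lengthen polyunsaturated fatty acids, *Elovl5* those of shorter chain and *Elovl2* those on the way to docosahexaenoic acid. *Elovl5* (chromosome 9, 77917364 to 77984519, plus strand) stood at 588, 444 and 527 CPM in SHMT2 fl/fl mice and at 757, 2066 and 1098 CPM in SHMT2 HKO mice. No SHMT2 HKO mouse reached down into the SHMT2 fl/fl range, and mouse 2 carried the largest part of the rise in the mean. The log2 fold change was 1.33 (SE 0.35, edgeR adjusted p = 0.0236), with means of 520 ± 72.2 and 1307 ± 679 CPM (SD, n = 3). *Elovl2* (chromosome 13, 41182381 to 41220405, minus strand) stood at 380, 346 and 422 CPM and at 551, 847 and 729 CPM. The *Elovl2* groups were well apart and its 3 SHMT2 HKO mice lay closer together than those of *Elovl5*, on the log scale 0.62 from lowest to highest against 1.45. Its log2 fold change was 0.89 (SE 0.19, edgeR adjusted p = 0.0118), with means of 383 ± 38.5 and 709 ± 149 CPM (SD, n = 3).

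The within-mouse log2 ratio of *Elovl2* to *Elovl5* differed by -0.34 (SE 0.27, exact two-sided permutation p = 0.3) and that of *Elovl6* to *Elovl5* by 0.05 (SE 0.29, p = 0.9), both with overlapping groups. The windows before the start of *Elovl5* and *Elovl6* were read from RefSeq (GRCm38.p6), which held such a window for 6 of the 10 members, *Elovl1*, *Elovl2*, *Elovl5*, *Elovl6*, *Elovl7* and *Fads2*, in 8 windows. They were searched on both strands for TCACCCCAC, a core of the sterol regulatory element, for CCAAT, for the E-box CACGTG and for the nuclear receptor motif AGGTCA. The sequences of *Elovl5* and *Elovl6* are shown because these 2 elongases rose by nearly the same factor, with the matches in capitals and those on the minus strand in the letters of the plus strand.
Elovl5, chr9:77917115-77917364, plus strand: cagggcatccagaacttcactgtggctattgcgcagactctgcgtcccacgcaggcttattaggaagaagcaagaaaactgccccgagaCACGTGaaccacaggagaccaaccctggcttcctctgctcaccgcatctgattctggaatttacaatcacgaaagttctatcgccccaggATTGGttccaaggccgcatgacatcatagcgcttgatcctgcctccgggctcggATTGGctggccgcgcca
Elovl6, chr3:129532136-129532385, plus strand: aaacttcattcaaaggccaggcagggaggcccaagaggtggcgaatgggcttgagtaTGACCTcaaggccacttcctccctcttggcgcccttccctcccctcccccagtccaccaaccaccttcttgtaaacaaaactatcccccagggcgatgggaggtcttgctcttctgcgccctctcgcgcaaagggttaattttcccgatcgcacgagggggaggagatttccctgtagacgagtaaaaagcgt
The *Elovl5* window held CACGTG 161 bases before the start and CCAAT on the minus strand at 71 and 17 bases before it. The *Elovl6* window held AGGTCA on the minus strand 193 bases before the start. These distances are counted from the RefSeq start at the end of each window, which for *Elovl6* lies inside the GENCODE gene whose limits are given above. Among 32851 windows of this length, CACGTG was found in 6.02%, CCAAT in 33.8%, AGGTCA in 14% and TCACCCCAC in 0.496%, and TCACCCCAC was in none of the 8 windows of members. A match says only that these letters stand in the window.

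*Elovl3*, *Elovl1* and *Elovl7* lengthen saturated and monounsaturated chains, and the 3 genes behaved differently. *Elovl3*, a gene known from brown fat, skin and male liver, showed the largest difference of the 10 under TMM and library size, while by ERCC scaling its log2 fold change of 2.28 was smaller in size than the -2.35 of *Elovl7*. *Elovl3* (chromosome 19, 46131897 to 46135694, plus strand) was at 18.8, 9.1 and 12.2 CPM in SHMT2 fl/fl mice and at 152, 168 and 65.6 CPM in SHMT2 HKO mice. The lowest SHMT2 HKO mouse was well above the highest SHMT2 fl/fl mouse. Here mouse 3, not mouse 1, was the lowest of its group, though by ERCC scaling it was mouse 1. The log2 fold change was 3.26 (SE 0.42, edgeR adjusted p = 0.00226), with means of 13.4 ± 4.95 and 128 ± 54.9 CPM (SD, n = 3). Without SHMT2 HKO mouse 1, which held the adipocyte transcripts, it was 3.12 (edgeR adjusted p = 0.0049). The summed adipocyte markers were at 99.2, 62.4 and 11 CPM in SHMT2 HKO mice 1, 2 and 3. Of these sums, *Cfd* made 91.1, 62.2 and 10.9 CPM. In SHMT2 HKO mouse 2, which had the most *Elovl3*, *Adipoq* and *Lep* had 0 counts, *Plin1* 1 and *Retn* 2. The part of adipocyte RNA in the *Elovl3* level was not tested. In the same livers, 8 of 10 genes that are higher in male than in female mouse liver also rose and none fell. Their median log2 fold change was 2.24, and of all tested genes 12.5% were called higher and 16.5% lower. Among the male-biased genes, *Cyp4a12a* had a log2 fold change of 2.34 (SE 0.28, edgeR adjusted p = 0.00145). That of *Susd4* was 4.08 (SE 0.51, edgeR adjusted p = 0.00196), although all 6 mice were male. Hepatic *Elovl3* is known to cycle with the circadian clock. Of 13 clock genes, *Hlf* rose (log2 fold change 0.76, SE 0.11, edgeR adjusted p = 0.00251) and the other 12 did not pass the test. This count stands against the same 12.5% of all tested genes. Any relation of *Elovl3* to the male-biased or the clock genes was not tested.

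*Elovl1* (chromosome 4, 118428093 to 118432953, plus strand), which makes very long saturated chains for ceramides in most tissues, was at 60.3, 61 and 66.2 CPM in SHMT2 fl/fl mice and at 60.4, 66 and 62.5 CPM in SHMT2 HKO mice. The values of the 2 groups interleaved, with a log2 fold change of 0.01 (SE 0.11, edgeR adjusted p = 0.946) whose sign changed with the scaling. It had the narrowest spread of the 10 members, 0.14 on the log2 scale in SHMT2 fl/fl against 0.13 in SHMT2 HKO mice. The *Elovl3* to *Elovl1* log2 ratio within a mouse was -1.68, -2.74 and -2.44 in SHMT2 fl/fl and 1.33, 1.34 and 0.07 in SHMT2 HKO mice, a difference of 3.20 (SE 0.53, exact two-sided permutation p = 0.1, the smallest possible, adjusted p = 0.3 over 6 ratios).

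*Elovl7* (chromosome 13, 108214404 to 108285683, plus strand) was the least abundant member per exon length, with 597, 470 and 565 counts in SHMT2 fl/fl mice and 39, 27 and 207 in SHMT2 HKO mice. This was 14.6, 17.7 and 14.7 CPM against 1.66, 1.37 and 8.15 CPM, so the groups did not overlap but SHMT2 HKO mouse 3 kept a much higher level than mice 1 and 2. The log2 fold change of -2.05 (SE 0.63) had the adjusted p nearest the threshold among the called members (edgeR adjusted p = 0.047). This call held without SHMT2 HKO mouse 3 (-3.39, edgeR adjusted p = 0.000297) but not when any other mouse was left out. The summed cholangiocyte markers were at 1030, 1229 and 981 CPM in SHMT2 fl/fl mice and at 131, 131 and 250 CPM in SHMT2 HKO mice 1, 2 and 3. Mouse 3 was also the highest SHMT2 HKO mouse for the summed stellate cell and fibroblast markers (293, 448 and 769 CPM), lymphocyte markers (18.8, 17.6 and 24.9 CPM) and macrophage markers (422, 515 and 517 CPM). The part of any of these cells in the *Elovl7* level was not tested.

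**Figure D2:**
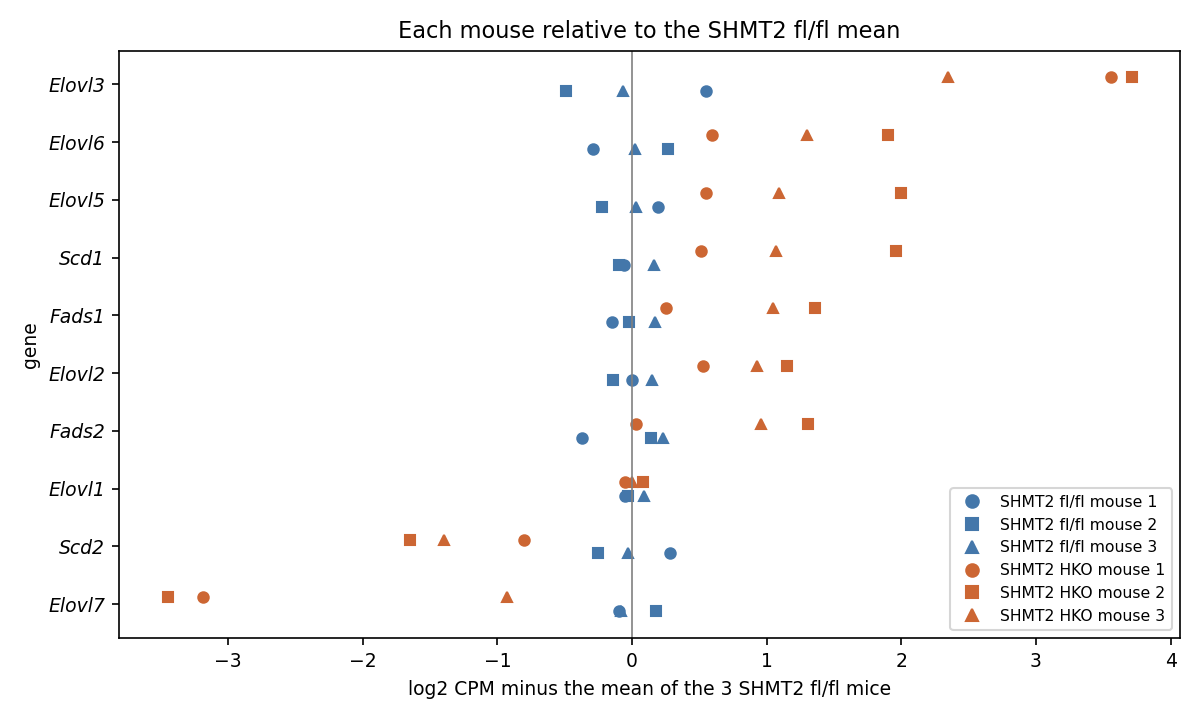
Log2 CPM of each member in each mouse, minus the mean of the 3 SHMT2 fl/fl mice, with genes ordered by their log2 fold change and symbols for mouse 1, 2 and 3 of each group. In these TMM-scaled values SHMT2 HKO mouse 2 is the highest SHMT2 HKO mouse for all 6 raised members, and *Elovl7* is spread over 2.52 in SHMT2 HKO mice.

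The SHMT2 HKO mice kept a common order for most raised members, but which mouse was highest depended on the scaling. Under TMM, mouse 2 was the highest and mouse 1 the lowest for *Scd1*, *Fads1*, *Fads2*, *Elovl2*, *Elovl5* and *Elovl6*. Mouse 2 was also the highest for *Elovl3*. By ERCC scaling mouse 3 was the highest for all of these but *Elovl3*, with *Scd1* at 8949, 29002 and 33222 CPM in mice 1, 2 and 3. By library size mouse 3 was the highest for *Elovl2*. Orders of mice named elsewhere are those under TMM. Relative to the SHMT2 fl/fl mean under TMM, *Scd1* was higher by 0.51, 1.96 and 1.07 in SHMT2 HKO mice 1, 2 and 3 on the log2 scale. *Elovl5* was higher by 0.55, 2.0 and 1.09 and *Elovl6* by 0.59, 1.90 and 1.30. For these 3 genes mouse 2 thus stood more than 1 log2 unit above mouse 1. *Scd2* ran in the opposite order under TMM, at -0.80, -1.65 and -1.40, while by ERCC scaling mouse 3 was its highest SHMT2 HKO mouse. These orders rest on 3 mice and were given no test.

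The genes whose levels followed each member most closely over the 6 mice were found by the distance of their log2 CPM relative to the SHMT2 fl/fl mean, among 12325 tested genes with a mean of at least 1 log2 CPM. *Elovl5* was the nearest gene to *Scd1* (distance 0.31), followed by *Pmvk*, an enzyme of the mevalonate pathway, and *Pstpip2*. The nearest genes to *Elovl5* were *Pstpip2*, *Nsdhl*, an enzyme of cholesterol synthesis, and *Scd1*. *Gpam*, which attaches the first acyl chain in triglyceride synthesis, was nearest to both *Fads1* (0.16) and *Fads2* (0.35), with *Acsl5* and *Klk1b4* next for *Fads1* and *Fads1* and *Acaa1b* next for *Fads2*. Among the genes nearest to *Elovl6* were *Gm45053* and *Paqr7*. *Elovl2* lay nearest to *Ugt1a6b*, *Hsd17b4*, an enzyme of peroxisomal beta-oxidation, and *Azin1*. *Elovl3* was nearest to *Slc15a5*, the Kupffer cell gene *Clec4f* and *Tmem28*. The neighbours of the other members were *Shc2*, *Veph1* and *Cib3* for *Elovl7*, *Ly6e*, *Itgam* and *Cpne8* for *Scd2*, and *Tm9sf4*, *Flii* and *Ncln* for *Elovl1*. These distances describe 6 mice of 2 genotypes, so genes that changed by a like amount come close for that reason alone.

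Levels were compared between members per exon length, as TPM. No TMM factor entered TPM, so the TPM of a member in the 2 genotypes does not give the fold changes above. In SHMT2 fl/fl livers the order was *Scd1* (6928 ± 914 TPM, SD, n = 3), *Fads2* (732), *Elovl5* (427), *Fads1* (379), *Elovl2* (277), *Elovl1* (65.7), *Scd2* (39.6), *Elovl6* (29.8), *Elovl3* (19.8) and *Elovl7* (11.1). The ranges of *Elovl5* and *Fads1* overlapped, as did those of *Scd2* and *Elovl6* and of *Elovl6* and *Elovl3*, and the other neighbours in this order were apart. In SHMT2 HKO livers *Scd1* (12284 ± 5817 TPM, SD, n = 3) was followed by *Fads2* (973), *Elovl5* (766), *Fads1* (540) and *Elovl2* (375), each overlapping the next, and then by *Elovl3* (129), *Elovl6* (55.5), *Elovl1* (48.2), *Scd2* (11.7) and *Elovl7* (2.17). Here *Elovl6* and *Elovl1* overlapped. *Elovl3* moved from 9th to 6th place and *Scd2* from 7th to 9th. *Scd1* held 81% to 82.4% of the members' counts in SHMT2 fl/fl mice and 82.9% to 86.6% in SHMT2 HKO mice.

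**Figure D3:**
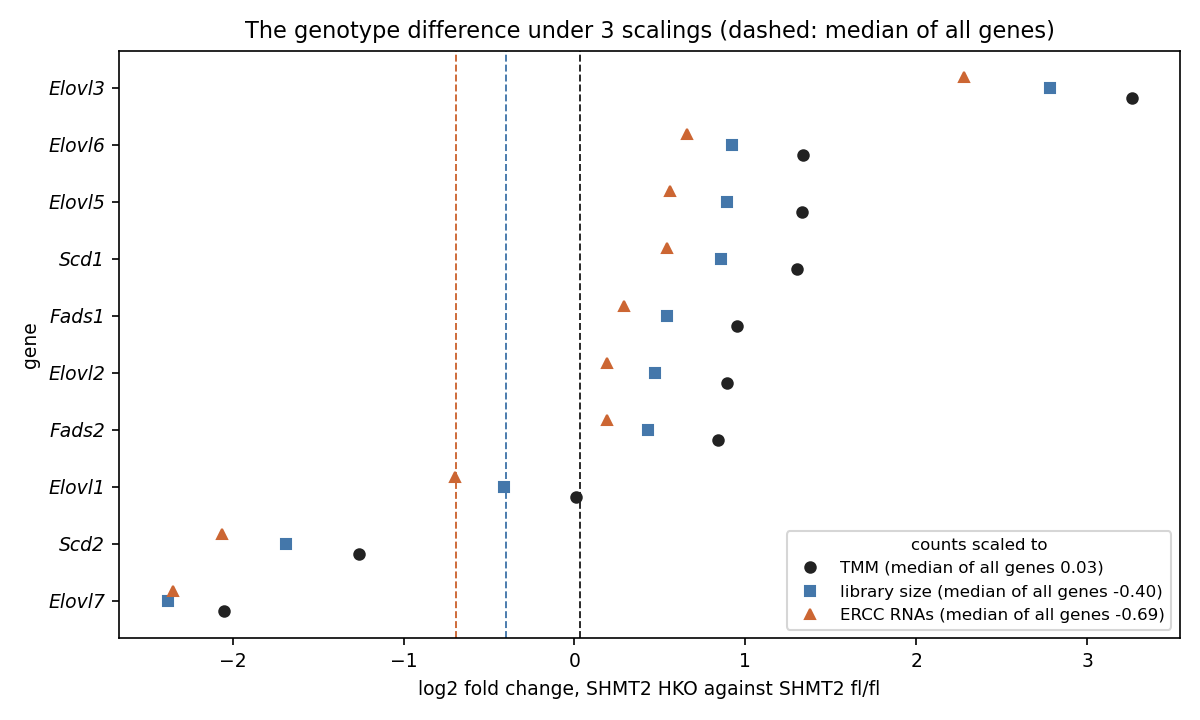
Fitted log2 fold change of each member (SHMT2 HKO against SHMT2 fl/fl) with counts scaled by TMM, by library size or by the ERCC RNAs, and the median of all tested genes under each scaling as a dashed line. The members shift downward with the median, which is 0.03, -0.40 and -0.69 in turn, *Elovl7* by the least.

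The size of the differences depended on how libraries were scaled. Against plain library size the median of all tested genes fell by 0.40 on the log2 scale, and against the ERCC RNAs, synthetic transcripts added to each sample, it fell by 0.69. The ERCC RNAs took 1.47%, 1.84% and 1.42% of counts in SHMT2 fl/fl mice and 2.75%, 2.31% and 1.35% in SHMT2 HKO mice. Relative to the median of all genes, *Scd1* went from 1.27 under TMM to 1.26 and 1.24, *Elovl3* from 3.23 to 3.17 and 2.98, and *Elovl7*, which moved the most, from -2.08 to -1.99 and -1.66. As absolute differences the raised members became smaller. Scaled by library size, *Scd1* was at 13624, 12632 and 14784 CPM in SHMT2 fl/fl and 13541, 36760 and 24268 CPM in SHMT2 HKO mice, so that SHMT2 HKO mouse 1 no longer stood above the SHMT2 fl/fl range.

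By library size only *Elovl3* separated upward, 3 members (*Elovl1*, *Elovl7* and *Scd2*) separated downward and 6 overlapped, where 6% and 46.8% of all tested genes separated in these directions. By ERCC scaling only *Elovl3* separated upward, *Elovl7* and *Scd2* separated downward and 7 members overlapped, where 1.29% and 32.4% of all genes did. The edgeR test called *Elovl3* and *Elovl6* higher and the same 3 members lower by library size, and *Elovl3* higher with *Elovl7* and *Scd2* lower by ERCC scaling. Of all 16089 tested genes, it called 539 higher and 4923 lower by library size, and 107 higher and 2759 lower by ERCC scaling. Of all called genes, 43.1% were higher under TMM, 9.87% by library size and 3.73% by ERCC scaling. *Elovl3*, *Scd2* and *Elovl7* thus kept their calls under all 3 scalings and *Elovl6* under TMM and library size, while *Scd1*, *Fads1*, *Elovl2* and *Elovl5* were called under TMM and under neither of the others.

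**Figure D4:**
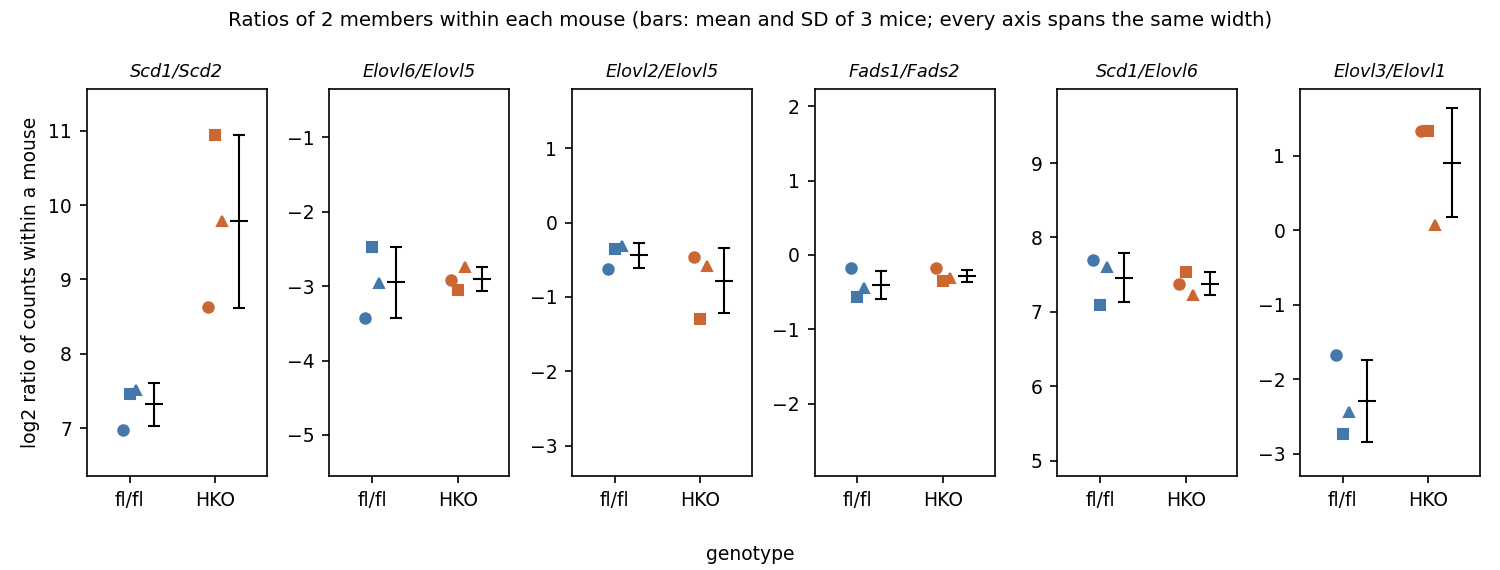
Log2 ratios of counts of 2 members within each mouse, for SHMT2 fl/fl (blue) and SHMT2 HKO (orange) mice, with the mean and SD of 3 mice and the same span on every axis. *Scd1*/*Scd2* and *Elovl3*/*Elovl1* separate the genotypes, and the other 4 ratios overlap.

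The genes that work with the elongases and desaturases were listed by their step, and their counts stand against the 12.5% and 16.5% of all genes called. *Elovl4*, *Fads3*, *Fads6*, *Scd3*, *Scd4*, *Degs1* and *Degs2* are relatives of the members, and of the 6 that were tested none rose and 2 fell, with a median log2 fold change of -0.56. Those 2 were *Scd3* and *Degs2*, which hydroxylates ceramide precursors (log2 fold change -1.48, SE 0.33, edgeR adjusted p = 0.0136). *Elovl4* was not tested and had 25 counts in SHMT2 HKO mouse 1 and at most 7 in the others. Among the 6 partners that complete each elongation cycle, the reductases *Hsd17b12* (1.0, SE 0.15, edgeR adjusted p = 0.00305) and *Tecr* (0.85, SE 0.23, adjusted p = 0.0249) rose. The dehydratase *Hacd4* fell (-1.55, SE 0.26, edgeR adjusted p = 0.00437). The other 3 dehydratases, *Hacd1*, *Hacd2* and *Hacd3*, had log2 fold changes of 0.33 to 0.41 and did not pass the test, although their groups did not overlap.

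Desaturases draw electrons by way of cytochrome b5. Of 6 genes listed for cytochromes b5 and their reductases, 3 rose and 1 fell, and whether each of them serves the desaturases was not tested. *Cyb5b* (log2 fold change 1.13, SE 0.21, edgeR adjusted p = 0.00645), *Cyb5r3* (1.11, SE 0.24, adjusted p = 0.012) and *Cyb5a* (0.60, SE 0.17, adjusted p = 0.031) rose, and *Cyb5r1* fell (-0.71, SE 0.23, adjusted p = 0.0481) with overlapping groups. *Cyb5r3* was at 549, 565 and 528 CPM in SHMT2 fl/fl and 956, 1658 and 933 CPM in SHMT2 HKO mice, again highest in mouse 2.

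Of 9 genes listed around the synthesis of palmitate, the substrate of *Elovl6*, 8 rose and none fell, with a median log2 fold change of 1.59. Not all of them encode enzymes that make palmitate, *Thrsp* and *Mid1ip1* among these. *Acacb*, whose product malonyl-CoA also restrains mitochondrial oxidation, had a log2 fold change of 2.20 (SE 0.36, edgeR adjusted p = 0.0043), *Thrsp* of 2.81 (SE 0.47, adjusted p = 0.00517), *Slc25a1*, the citrate carrier, of 0.90 (SE 0.16, adjusted p = 0.00597) and *Acly* of 1.58 (SE 0.30, adjusted p = 0.00749). *Fasn*, the fatty acid synthase, was at 324, 287 and 295 CPM in SHMT2 fl/fl and 438, 1386 and 908 CPM in SHMT2 HKO mice, in the same order of mice as *Scd1* and *Elovl6*. *Mid1ip1* was the gene of this list that did not pass the test (0.21, SE 0.13).

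Of 15 regulators of lipogenesis, 7 rose and none fell, with a median log2 fold change of 0.55. Those that rose were *Insig1* (1.27) and *Insig2* (0.90), which hold SREBP precursors in the endoplasmic reticulum, their escort *Scap* (0.55), *Mlxipl*, which encodes the carbohydrate sensor ChREBP (1.09), *Ppara* (1.10), *Pparg* (0.88) and *Nr1h3*, which encodes LXR alpha (0.73). Their edgeR adjusted p-values ran from 0.00258 for *Insig1* to 0.0362 for *Scap*. *Srebf1* was at 293, 228 and 320 CPM in SHMT2 fl/fl and 497, 402 and 350 CPM in SHMT2 HKO mice. These groups did not overlap, but the log2 fold change of 0.57 (SE 0.19) did not pass the test (edgeR adjusted p = 0.0553), and the order of the SHMT2 HKO mice was not that of *Scd1*. *Srebf2* (0.14, SE 0.12) and *Nr1h2* (-0.18, SE 0.12) did not pass either.

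Docosahexaenoic acid is made from the products of *Elovl2* and *Fads2* by a round of peroxisomal beta-oxidation, and 6 of its 9 genes rose and none fell, with a median log2 fold change of 0.72. *Abcd3*, a peroxisomal transporter, rose by 1.13 (SE 0.19, edgeR adjusted p = 0.00433) and *Hsd17b4* by 0.90 (SE 0.16, adjusted p = 0.00615). Of 10 targets of PPAR alpha, 4 rose and none fell, among them *Vnn1* (1.13, SE 0.18, edgeR adjusted p = 0.00343). *Cyp4a10* and *Cyp4a14* varied too much between mice to pass, at 89.8 to 307 and 132 to 350 CPM in SHMT2 fl/fl and 230 to 927 and 82.2 to 854 CPM in SHMT2 HKO mice.

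The genes that use the products moved both ways. Of 12 tested genes that activate fatty acids or place them in phospholipids, 5 rose and 4 fell, with a median log2 fold change of -0.12. *Acsl1* (1.37, SE 0.24, edgeR adjusted p = 0.00565), the main acyl-CoA synthetase of liver, and *Lpcat3* (0.54, SE 0.13, adjusted p = 0.0166), which puts polyunsaturated chains into phosphatidylcholine, were among those that rose. *Mboat1* (-2.94, SE 0.35, edgeR adjusted p = 0.00148), *Lpcat2* (-1.44, SE 0.18, adjusted p = 0.00173), *Lpcat1* (-1.32, SE 0.20, adjusted p = 0.00326) and *Lpcat4* (-1.97, SE 0.30, adjusted p = 0.00327) fell. Of 5 tested ceramide synthases none rose and 2 fell, *Cers5* (-1.38, SE 0.17, edgeR adjusted p = 0.00154) and *Cers4* (-0.78, SE 0.20, adjusted p = 0.0208). *Cers2*, which uses the very long chains that *Elovl1* makes and is the most abundant of them in liver, had a log2 fold change of 0.39 (SE 0.15, edgeR adjusted p = 0.0825). Markers of several other liver cells differed in the same livers, as given above, and their part in these values was not tested.

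The list counts also moved with the scaling. By ERCC scaling 3 of the 9 palmitate genes and 5 of the 10 male-biased genes were called higher, and none of the regulators, the elongation partners, the cytochrome b5 genes, the peroxisomal genes or the PPAR alpha targets. By library size 3 of the 15 regulators were called higher and 2 lower, and 4 relatives of the members were called lower. These counts stand against 107 of 16089 tested genes called higher by ERCC scaling, and 539 called higher and 4923 lower by library size.

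**Figure D5:**
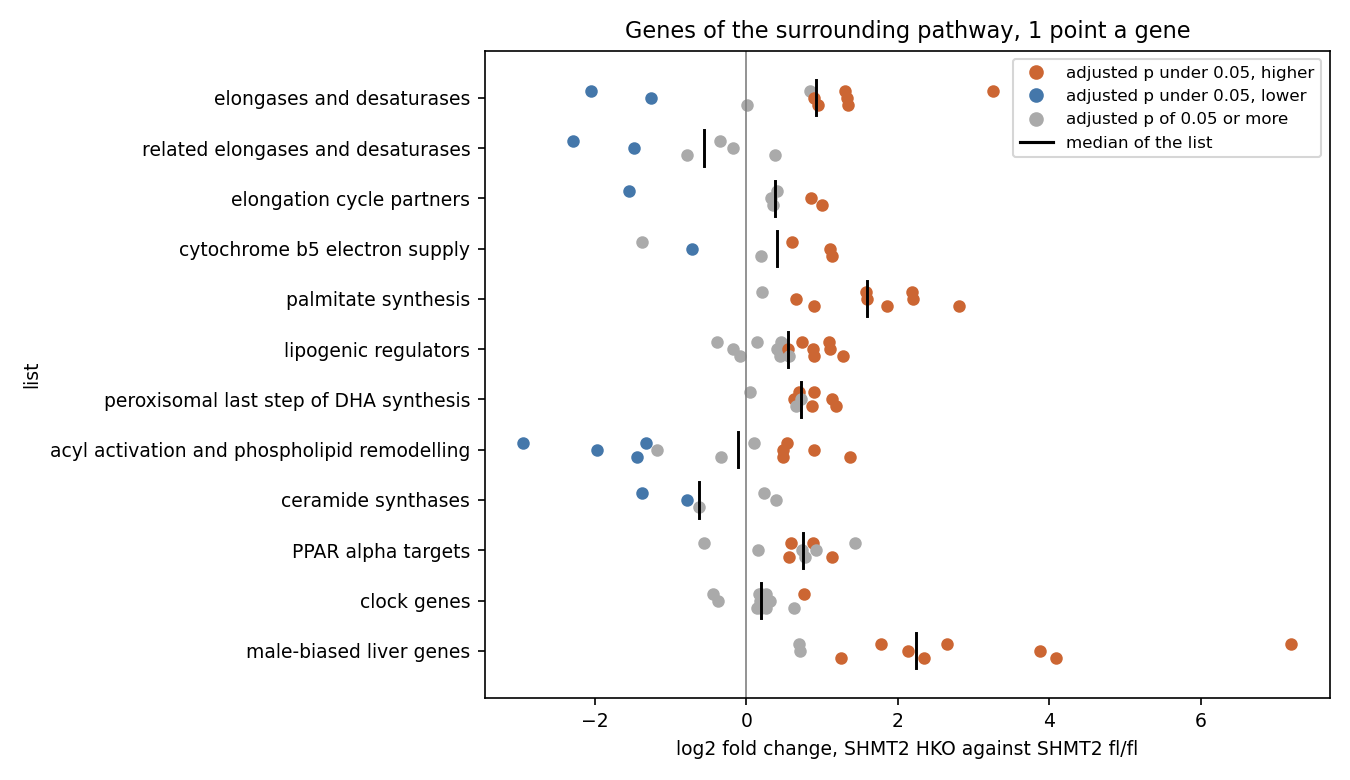
Log2 fold change of each tested gene of the 10 members and of 11 lists around them, coloured by its edgeR call, with the median of each list as a bar. The 9 genes of palmitate synthesis lie above 0, while the relatives of the members have their median at -0.56.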

How the data were processed

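Liver RNA of 3 SHMT2 fl/fl (WT) and 3 SHMT2 HKO (KO) samples was analysed, with groups from the deposited labels. The labels number the samples without naming animals. They were read as separate mice, and p-values measure the spread between these 6 samples. The deposited values are raw counts of unique hits per gene, which the authors made without normalization. The submitters' processing notes name Trimmomatic 0.36, STAR 2.5.2b, featureCounts of Subread 1.5.2 and the builds GRCm38 and mm10. The use of strand in counting is not given in the sources used here, so reads of overlapping antisense genes cannot be told apart. Members overlapped other genes of the table by at most 53 bases on the opposite strand. On the same strand, *Elovl6* shared 1671 bases with *Gm43072*, which had at most 4 counts. *Fads1* shared 65 bases with *Mir6993*, which had at most 9 counts, and *Scd2* shared 61 with *Mir5114*, which had 0.

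The 92 ERCC RNAs entered neither library sizes nor tests, and 345 gene IDs had no GENCODE M21 entry. A floor of 3 counts was 0.0734 to 0.152 CPM. Genes were filtered with filterByExpr, scaled by TMM and tested with the two-sided quasi-likelihood F test of edgeR 4.0.16 (R 4.3.3, robust dispersions). Unless another tool is named, adjusted p-values of genes come from it, after Benjamini-Hochberg adjustment over all genes tested. The code was tested on simulated data. TPM used exon lengths of GENCODE M21. Ratios within a mouse had 0.5 added to each count and were compared by exact permutation. No 2 libraries of the same genotype agreed within sampling noise. Samples of the same number did not deviate together (correlations -0.0459, 0.0125 and -0.0766), and the main test used no pairing. With 3 samples in a group these correlations cannot exclude that the numbers pair the samples. The alternatives were DESeq2 1.42.0, limma-voom (limma 3.58.1), scaling by library size, upper quartile, RLE or ERCC RNAs, no filter, a minimum of 10 counts per sample, non-robust dispersions, the replicate block, 5 added counts in ratios, and leaving out each mouse.

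The members and lists were chosen with earlier results of these data known. The genes named are the members, *Shmt2*, up to 4 genes a list with the smallest adjusted p, genes of lists of 9 or fewer, the regulators, the 3 genes nearest each member, and the neighbours of the Scd and Fads clusters. Adipocyte markers by mouse, *Cyp4a10*, *Cyp4a14* and the mouse to leave out beside a result were picked after their values were seen. Some results of this rule are not reported here.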

Additional observations from a re-analysis of the deposited data

How the results depend on the processing

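The count of members called higher, 6 in the report, was 7 with DESeq2, 4 with no filter and 4 with the replicate block, but 2 by library size without TMM and 1 by ERCC scaling. Leaving out a mouse gave 1 to 7, with 1, 2 and 2 without SHMT2 fl/fl mouse 1, 2 and 3 and 4 without SHMT2 HKO mouse 2. The count called lower, 2 in the report, was 1 with no filter, which lost *Elovl7*, and 1 to 2 on leaving out a mouse. Over all genes 4663 were called, 2866 by ERCC scaling, 3584 with the replicate block and 2426 to 5597 on leaving out a mouse. Of the 4663, 2012 were higher, against 539 by library size, 107 by ERCC scaling and 805 to 2521 on leaving out a mouse. Whether the replicate numbers pair the mice is not known, and in the block *Elovl5* (edgeR adjusted p = 0.06) and *Scd1* (0.0748) missed the threshold. *Elovl3* and *Scd2* were called under all 16 alternatives, with log2 fold changes of 2.28 to 3.59 and of -2.06 to -1.09. *Scd1* ranged from 0.54 to 1.58 with 9 of 16 calls kept, *Fads1* from 0.29 to 1.21 with 9, *Elovl5* from 0.56 to 1.61 with 9, *Elovl2* from 0.19 to 1.04 with 12, *Elovl6* from 0.66 to 1.62 with 12, and *Elovl7* from -3.39 to -1.66 with 10. *Elovl1*, at 0.01, turned to -0.41 by library size (adjusted p = 0.0407), -0.0772 by upper quartile, -0.70 by ERCC scaling, -0.0113 with no filter and -0.0306 with at least 10 counts, and ran from -0.0213 to 0.0549 on leaving out a mouse. The difference in *Elovl6*/*Elovl5* ran from -0.19 to 0.29 and that in *Scd1*/*Elovl6* from -0.27 to 0.03 on leaving out a mouse. The cause of these changes was not tested beyond the scaling factors and smaller groups themselves. Of 576 list counts recomputed, 491 stayed within 1.5 times, 67 fell and 18 rose. No group had the 4 mice needed to look for outlying samples, and low counts limit *Scd4*, *Elovl4* and the adipocyte markers.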
